A study of Mus musculus with 8 samples.

Results

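TWEAK (Tnfsf12), APRIL (Tnfsf13) and BAFF (Tnfsf13b) are ligands of the tumour necrosis factor family, and their receptors are Fn14 (Tnfrsf12a), TACI (Tnfrsf13b), the BAFF receptor (Tnfrsf13c) and BCMA (Tnfrsf17). The genes were chosen by symbol, because the neighbouring genes Tnfsf12 and Tnfsf13 lie in the deleted chromosome segment and the other genes encode their relatives and receptors. Of these 7 genes, 6 were found among the 18860 genes of the series by the symbols of the authors' tables; Tnfsf12 was not analysed here under its own symbol. A further row, BC096441, carries the Ensembl identifier that GENCODE M21 names Tnfsfm13, the readthrough locus that joins Tnfsf12 to Tnfsf13. It is given beside Tnfsf13 and is not counted as a member.

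RNA was sequenced from marrow cells of moribund C57BL/6 mice with acute myeloid leukaemia, whose age the sources used here do not give. Every leukaemia in both groups carried shNf1 and shMll3, hairpins that lower Nf1 and Mll3, as well as Vav1-Cre, in which the haematopoietic Vav1 promoter drives the recombinase. In the 11B3-deleted group (11B3fl/p53fl, n = 4 libraries) 1 chromosome 11 carries the conditional deletion of the 11B3 segment, which includes Trp53, Tnfsf13 and BC096441, and the other copy has only Trp53 floxed. The p53-loss-only group (p53fl/fl, n = 4 libraries) has Trp53 floxed on both copies and keeps the rest of the segment. The comparison asks what the loss of 1 copy of the segment does to expression beyond the loss of Trp53. The labels speak of 4 lines per cohort without saying that each came from a separate mouse, so a p-value here covers only library-to-library spread, which may be technical, and marrow cells that are not leukaemic may be among the cells sequenced.

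The libraries held 30502718 to 35719495 recovered reads each. Trp53, targeted in both groups, had deposited values of 189.2 to 392.5 in the 11B3-deleted libraries and 300.2 to 577.1 in the p53-loss-only libraries, and reads outside the floxed part would still be counted. The other interval genes were lower in each of the 4 deleted libraries than in each of the p53-loss-only libraries by their median, as given below for Tnfsf13.

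The ligands are made as trimers, mostly by myeloid cells. TWEAK binds Fn14, BAFF binds the BAFF receptor, TACI and BCMA, and APRIL binds TACI, BCMA and heparan sulphate chains of proteoglycans. The receptors recruit TRAF adaptor proteins, and the BAFF receptor and Fn14 activate the alternative NF-kB pathway by releasing the kinase NIK (Map3k14) from TRAF3. BAFF, through its receptor, keeps mature B cells alive, and APRIL, through BCMA, keeps plasma cells alive.

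Tnfsf12 and Tnfsf13 are on the minus strand of chromosome 11, Tnfsf12 upstream, and the readthrough transcript runs through both. The sequences below are 60 coding bases of each GENCODE M21 transcript (GRCm38, minus strand) around the exon junction at which the readthrough transcript leaves Tnfsf12 and enters Tnfsf13. They are shown because they explain which reads can be given to which row. Capitals mark the Tnfsf13 exon stretch that the readthrough shares.
Readthrough, chr11:69686957-69686986 joined to chr11:69685101-69685130: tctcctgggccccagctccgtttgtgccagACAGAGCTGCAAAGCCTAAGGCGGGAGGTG
Tnfsf12, chr11:69686957-69686986 and on to chr11:69686927-69686956: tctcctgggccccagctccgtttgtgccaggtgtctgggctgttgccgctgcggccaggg
Tnfsf13, chr11:69685131-69685160 and on to chr11:69685101-69685130: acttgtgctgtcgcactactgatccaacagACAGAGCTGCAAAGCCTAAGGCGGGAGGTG

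The first 30 bases of the readthrough are those of Tnfsf12 and the last 30 are those of Tnfsf13. Over whole genes, 983 of the 1637 exonic bases of Tnfsf13 and 731 of the 1515 exonic bases of Tnfsf12 also lie in exons of the readthrough locus. Tnfsf12 and Tnfsf13 share no exonic base (0 of 1515). A read from the shared stretch cannot be told apart between the rows, and the sources used here do not say how the authors' counting treated such reads or which annotation they used. The values of Tnfsf13 and BC096441 are therefore uncertain in their split. An antisense RNA gene, 2010012P19Rik (now Tnfsf13os), lies on the opposite strand there, and they do not say whether counting used strand.

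Levels are the deposited values, which are reads divided by a size factor of the library plus 1. They differ between genes also by length, so genes were compared per kilobase of exon (deposited value less 1, divided by the GENCODE M21 exon length). On the per-kilobase scale TACI (Tnfrsf13b) had the highest mean of the 6 genes, at a level of 999.7 ± 360 (SD over 8 libraries). APRIL (Tnfsf13) followed at a level of 175.2 ± 113.7 per kilobase and Fn14 (Tnfrsf12a) at 72.3 ± 25.5 per kilobase (SD over 8 libraries). The BAFF receptor (Tnfrsf13c) was at 40.4 ± 48.4 per kilobase, BAFF (Tnfsf13b) at 15.5 ± 14.3 and BCMA (Tnfrsf17) at 5.01 ± 4.86 (SD over 8 libraries). TACI was above APRIL in 8 of 8 libraries and the ranges did not overlap. The APRIL level was divided by all 1637 exonic bases, of which 983 are shared with the readthrough locus. If shared reads were left uncounted, that level is too low, so the distance of APRIL from TACI and its place in single libraries are uncertain. APRIL was above Fn14 in 6 of 8, Fn14 above the BAFF receptor in 7 of 8, and the BAFF receptor above BAFF in 5 of 8, with overlapping ranges at each of these steps. BAFF was above BCMA in 8 of 8, although their ranges over libraries overlapped.

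**Figure D1:**
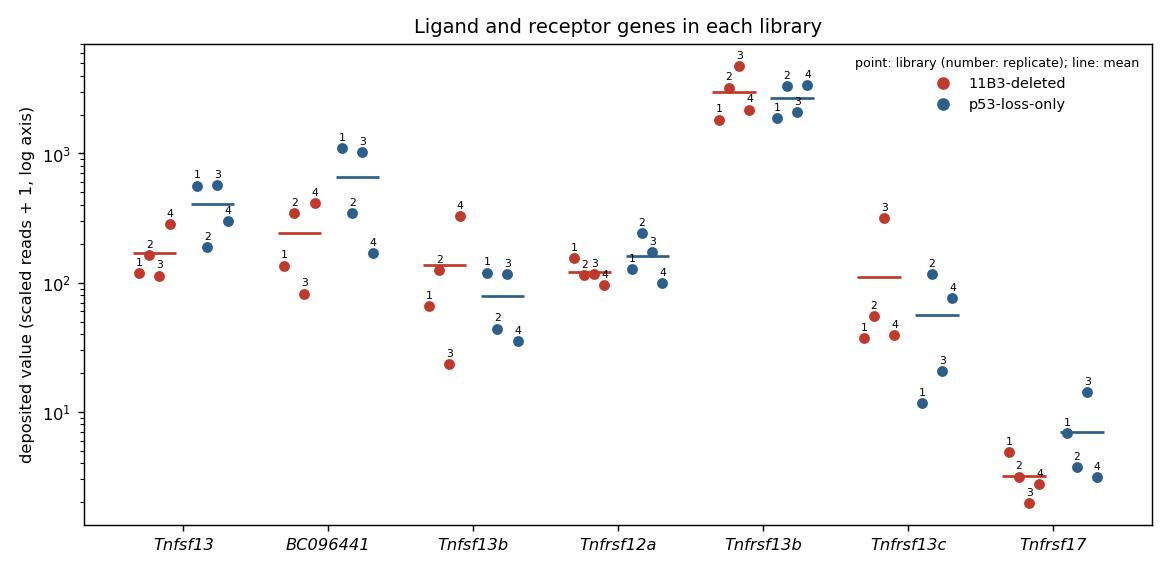
Deposited value of each gene (y axis, log scale, scaled reads plus 1) in each library; red points are 11B3-deleted, blue points p53-loss-only, numbers are replicates and lines are group means. Tnfrsf13b lies between 1826 and 4768 in the 8 libraries and Tnfrsf17 between 1.97 and 14.2, and the groups overlap in each gene.

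Across the genotypes, the interval ligand APRIL had the lower mean in the 11B3-deleted leukaemias, at 43.0% of the p53-loss-only level, and none of the tested members passed the test over all genes. With limma, 0 of 5 tested members had a Benjamini-Hochberg adjusted p under 0.05, against 0.0136% of the 14679 genes tested. With an unadjusted limma p under 0.05 there was 1 of 5, Tnfsf13, against 3.56% of all genes tested. With DESeq2 and with edgeR on the recovered reads 0 of 5 passed after adjustment, against 0.395% and 0.00681% of all genes, and 1 of 5 had an unadjusted p under 0.05 with each tool. The 4 libraries of each group overlapped in each of the 5 members, where 2.15% of all genes did not overlap. By mean log2 value, 2 of 5 members were lower in the 11B3-deleted group, against 48.4% of all genes. BCMA did not reach the filter on low values, a deposited value of 10 or more in 4 libraries, and has no test.

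**Figure D2:**
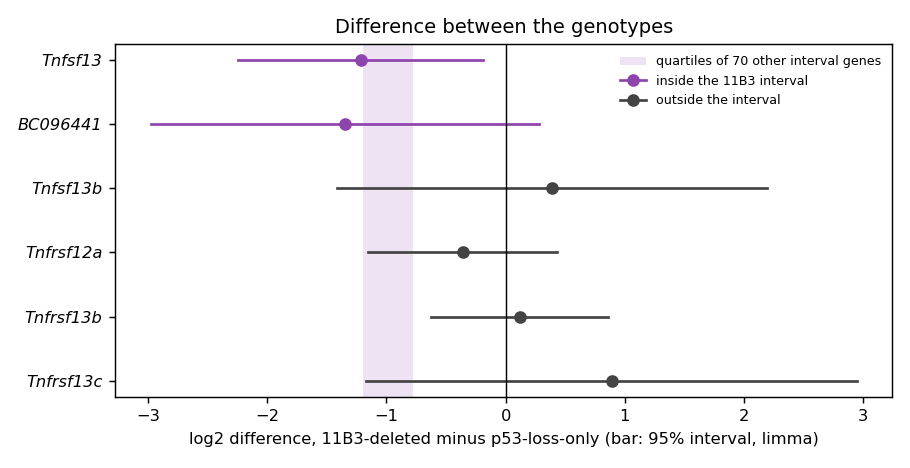
Log2 difference (x axis, 11B3-deleted minus p53-loss-only) of each tested gene with its 95% interval from limma; purple genes lie inside the 11B3 interval, and the shaded band spans the quartiles of 70 other interval genes. The interval of Tnfsf13 lies below 0, at -2.25 to -0.19, and the intervals of the other 5 genes include 0.

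Among the ligands, Tnfsf13 had deposited values of 118.2, 162.4, 113.4 and 285.0 in 11B3-deleted replicates 1 to 4. In replicates 1 to 4 of the p53-loss-only group its values were 565.2, 187.2, 571.2 and 299.2. The deleted libraries were lower except that replicate 4 lay above p53-loss-only replicate 2, and p53-loss-only replicates 1 and 3 were the highest of the 8. The means were 169.8 ± 79.9 and 405.7 ± 193.1 (SD, n = 4 each), and the log2 difference was -1.22 (SE 0.46, 95% interval -2.25 to -0.19, limma adjusted p = 0.996, unadjusted p = 0.0254). The two-sided exact permutation test of its mean log2 value gave p = 0.0571, where 70 arrangements are possible.

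BC096441, the row of the readthrough locus, had the same high libraries. Its deposited values, in the same order of replicates, were 135.7, 345.4, 82.4 and 410.2 with the deletion and 1104.1, 345.0, 1030.6 and 170.3 without it. Replicates 1 and 3 of the p53-loss-only group were again the highest, while replicate 4 of that group was below 2 of the deleted libraries. The log2 difference was -1.35 (SE 0.72, 95% interval -2.98 to 0.28, limma adjusted p = 0.996). The ratio of Tnfsf13 to BC096441 ranged from 0.47 to 1.38 in the deleted libraries and from 0.512 to 1.76 in the others. On the log2 scale that ratio differed by 0.13 between the groups (two-sided exact permutation test, p = 0.771), so no unequal change of the rows was detectable. The antisense row 2010012P19Rik was lower than either, between 2.94 and 11.8 in the deleted libraries and between 7.39 and 24.3 in the others, highest in p53-loss-only replicates 1 and 3.

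The neighbours of the locus in the interval gave a background for these values. Of 73 tested genes from Sco1 to Alox12 in gene order, 71 had a lower mean in the deleted group, and the median log2 difference of the 70 besides Trp53, Tnfsf13 and BC096441 was -0.92 (quartiles -1.20 and -0.78). BC096441 was at place 13 and Tnfsf13 at place 19 of 73, counted from the most negative difference. The nearest tested gene on 1 side, Senp3, a SUMO protease, had means of 1775 ± 380.6 with and 2922 ± 93.4 without the deletion (SD, n = 4 each), and its log2 difference was -0.74 (SE 0.18). On the other side Polr2a, the largest RNA polymerase II subunit, had a log2 difference of -0.92 (SE 0.17). In neither neighbour did the groups overlap, and they did not in 38 of the 73 tested interval genes, against 2.15% of all genes. Of the 73, 52 had an unadjusted limma p under 0.05, against 3.56% of all genes, and 0 passed after adjustment. The standard errors of Tnfsf13 (0.46) and BC096441 (0.72) were above the interval's median standard error of 0.32.

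The values of Tnfsf13 were also set beside those of the interval in each of the 8 libraries. On a log2 scale relative to the p53-loss-only mean of each gene, the interval median was -0.96, -1.17, -0.62 and -0.99 in 11B3-deleted replicates 1 to 4, and between -0.06 and 0.09 in the p53-loss-only libraries. On that scale Tnfsf13 gave -1.63, -1.17, -1.69 and -0.36 with the deletion, and 0.62, -0.97, 0.64 and -0.29 without it. Within the p53-loss-only group the SD of the log2 values of Tnfsf13 was 0.78, where the 70 other single interval genes had a median SD of 0.33 and 18 of them had a larger SD than Tnfsf13. The SD of BC096441 there was 1.30, and 6 of the 70 had a larger one. Set against the interval median of each library, Tnfsf13 differed by -0.26 between the groups on the log2 scale (two-sided exact permutation test, p = 0.657).

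**Figure D3:**
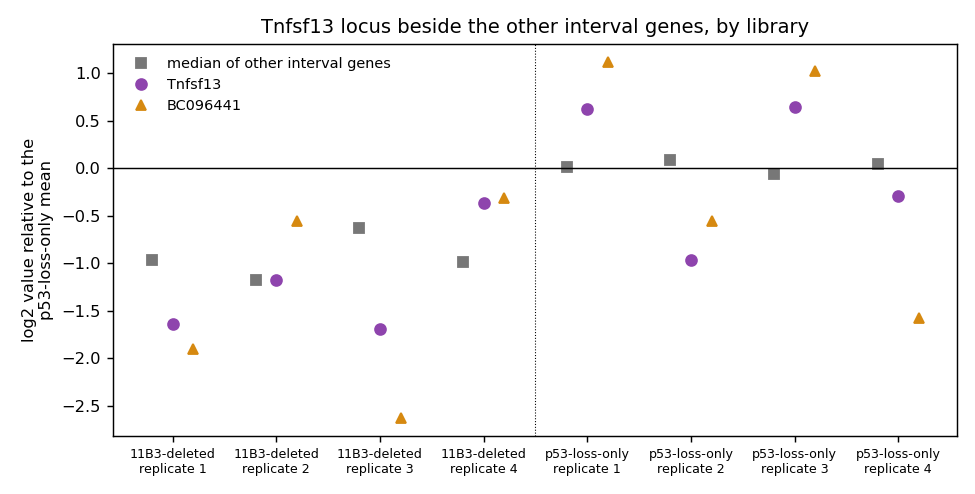
Log2 value relative to the p53-loss-only mean of each gene (y axis) in each library (x axis) for Tnfsf13, BC096441 and the median of 70 other tested interval genes. The interval medians of the deleted libraries lie between -1.17 and -0.62, and Tnfsf13 and BC096441 lie both above and below them.

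Monocyte and macrophage genes, of which 16 of 18 listed had a row, were set beside these values, since such cells are a normal source of APRIL. Their summed deposited values were 54011, 62639, 43585 and 82740 with the deletion and 106476, 53770, 142714 and 47602 without it. Ly6c2, Csf1r and Ccr2 were a large part of these sums, which therefore do not stand for the list as a whole. The highest sums were in p53-loss-only replicates 3 and 1, the libraries highest in Tnfsf13, but p53-loss-only replicate 4, the next highest in Tnfsf13, had the lowest sum but one. None of the 16 genes was without reads in any library (0 libraries each). By mean 9 of the 16 were lower with the deletion and 7 higher, and 0 passed with limma. With DESeq2 Cd68 passed and was lower (adjusted p = 5.59e-06), where 0.395% of all genes passed. Cd68 lies in the deleted interval, so its level is no measure of monocyte content. Of the 15 genes outside the interval, 3 were lower and 1 was higher at an unadjusted limma p under 0.05, against 3.56% of all genes in either direction, and the groups did not overlap in 2, against 2.15%. The median log2 difference of these 15 was -0.24, and their sums kept the order of libraries just given. Of the 3 genes of highest mean, the log2 differences were -0.34 for Ly6c2 (SE 0.43), -0.56 for Csf1r, the receptor of macrophage colony-stimulating factor (SE 0.39), and 0.06 for the chemokine receptor Ccr2 (SE 0.63). The mannose receptor Mrc1 and the complement genes C1qa, C1qb and C1qc had higher means with the deletion, at log2 differences of 0.78, 0.27, 0.33 and 0.45. Cx3cr1, Cd14 and Emr1 had lower means, at log2 differences of -2.34, -1.02 and -0.74. Of the 15 genes outside the interval, 8 had a lower and 7 a higher mean. The part of monocyte content in the Tnfsf13 values was not tested. In bulk RNA fewer cells of a type and less RNA per cell cannot be told apart.

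BAFF (Tnfsf13b), on chromosome 8, had deposited values of 65.4, 125.8, 23.3 and 329.4 in the libraries with the deletion, replicates 1 to 4, and of 119.5, 44.1, 116.1 and 35.1 in those without. The highest and the lowest library were both in the deleted group, with a 14.1-fold range over the 8 libraries. The log2 difference was 0.39 (SE 0.80, 95% interval -1.42 to 2.20, limma adjusted p = 0.996; exact permutation p = 0.657), and it became -0.24 without 11B3-deleted replicate 4.

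Among the receptors, Fn14 (Tnfrsf12a), on chromosome 17, had deposited values of 155.3, 114.0, 116.3 and 96.0 with the deletion and of 128.2, 243.2, 173.2 and 99.0 without. The groups overlapped, and p53-loss-only replicate 2 was the highest of the 8 libraries. Its range over the libraries, 2.53-fold, was the narrowest of the 6 members. The log2 difference was -0.36 (SE 0.35, 95% interval -1.15 to 0.43, limma adjusted p = 0.996; exact permutation p = 0.314).

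TACI (Tnfrsf13b) lies on chromosome 11 but outside the deleted interval. Its deposited values were 1825.7, 3238.0, 4767.9 and 2181.7 with the deletion and 1890.6, 3301.9, 2099.7 and 3383.1 without. Each group held high and low libraries, and 11B3-deleted replicate 3 was the highest. The means were 3003 ± 1320 and 2669 ± 783.2 (SD, n = 4 each), and the log2 difference was 0.12 (SE 0.33, 95% interval -0.63 to 0.86, limma adjusted p = 0.996; exact permutation p = 0.83). Beside it, the 70 interval genes other than Trp53, Tnfsf13 and BC096441 had a median log2 difference of -0.92 (quartiles -1.20 and -0.78). Whether TACI differs from them was not tested. With 11B3-deleted replicate 3 left out the difference was -0.14, and with p53-loss-only replicate 1 left out it was -0.03.

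The BAFF receptor (Tnfrsf13c), on chromosome 15, had deposited values of 37.1, 54.8, 315.0 and 39.2 with the deletion and of 11.7, 116.6, 20.7 and 75.5 without. Replicate 3 of the deleted group stood alone at the top, and the p53-loss-only libraries spread on both sides of the other deleted ones. The log2 difference was 0.89 (SE 0.91, 95% interval -1.17 to 2.95, limma adjusted p = 0.996; exact permutation p = 0.457), and 0.17 without 11B3-deleted replicate 3. The range over the 8 libraries was 27.0-fold, the widest of the 6 members.

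BCMA (Tnfrsf17), on chromosome 16 and best known from plasma cells, was close to the limit of counting. The recovered reads were 4, 2, 1 and 2 with the deletion and 6, 3, 12 and 2 without. The highest library was p53-loss-only replicate 3, and no fold is given.

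TACI and the BAFF receptor varied together over the 8 libraries. Of 10 pairs among the 5 tested members, this was the 1 pair to pass (log2 values, Pearson r = 0.905, exact permutation p = 0.00149, Benjamini-Hochberg adjusted over the 10 pairs 0.0149; Spearman rho = 0.905, exact permutation p = 0.00456, adjusted 0.0456). Without 11B3-deleted replicates 1 and 3, the libraries farthest from the median of TACI, r was 0.914. The BAFF receptor and the ligand APRIL ran in opposite directions with r = -0.741 (exact permutation p = 0.0334, adjusted 0.167; Spearman rho = -0.619, exact permutation p = 0.115), which did not pass. That r was -0.363 without p53-loss-only replicates 1 and 3 and so rests on those libraries. For BAFF and its receptor r was -0.698 (exact permutation p = 0.0532, adjusted 0.177) and for BAFF and TACI -0.671 (exact permutation p = 0.0718, adjusted 0.179). Without 11B3-deleted replicates 3 and 4, the libraries farthest from the median of BAFF, these were -0.735 and -0.491.

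**Figure D4:**
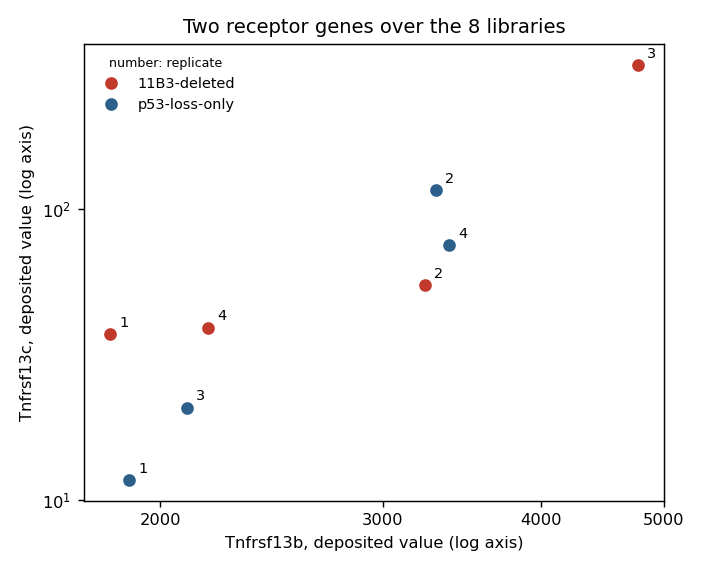
Deposited value of Tnfrsf13c (y axis, log scale) against that of Tnfrsf13b (x axis, log scale) in each of the 8 libraries; red is 11B3-deleted, blue p53-loss-only, numbers are replicates. The points run from p53-loss-only replicate 1 (1890.6 and 11.7) to 11B3-deleted replicate 3 (4767.9 and 315.0).

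The 250 bases before the start of each of these receptor genes are shown because the genes varied together. They were taken from the RefSeq annotation of GRCm38.p6, in which all 6 members have an entry. Capitals mark matches, on either strand, to NF-kB letters (GGG, any 5 bases, CC) or RUNX letters (TGTGGT).
Tnfrsf13b, chr11:61126505-61126754, plus strand: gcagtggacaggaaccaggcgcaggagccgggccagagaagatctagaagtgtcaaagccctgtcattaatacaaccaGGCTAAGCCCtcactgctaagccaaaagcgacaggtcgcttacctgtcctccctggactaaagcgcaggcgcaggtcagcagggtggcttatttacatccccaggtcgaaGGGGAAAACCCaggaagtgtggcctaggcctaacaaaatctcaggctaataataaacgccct
Tnfrsf13c, chr15:82224381-82224630, minus strand: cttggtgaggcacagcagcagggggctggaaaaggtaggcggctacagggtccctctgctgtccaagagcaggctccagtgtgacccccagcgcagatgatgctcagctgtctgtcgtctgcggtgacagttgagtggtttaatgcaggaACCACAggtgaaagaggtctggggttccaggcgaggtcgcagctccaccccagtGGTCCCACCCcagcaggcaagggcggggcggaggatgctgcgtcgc

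Both windows hold the NF-kB letters, Tnfrsf13b at 172, 62 and 61 bases before the start, where the matches at 62 and 61 overlap and the latter reads on both strands, and Tnfrsf13c at 46 bases. Of all 32851 promoter windows of this length 45.8% hold a match to these letters. The RUNX letters were found in Tnfrsf13c alone, at 100 bases, against 14% of all windows. Matches to PU.1 (GAGGAA, 23.3% of all windows) and C/EBP (TTGCNNAA, 9.56%) were not found in these windows. The windows had 54.0% and 63.2% G or C.

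Genes of the B lineage, from precursors to mature B cells, were set beside the BAFF receptor, which mature B cells normally carry. Over 22 of 22 listed genes with a row, the summed deposited values reached 69219 in 11B3-deleted replicate 3, where the other 7 libraries had 680 to 3279. The immunoglobulin-associated chain Cd79a was at 9065 in that library against 40.8 to 184.5 elsewhere, and the surrogate light chain gene Igll1 was at 9387 against 2.06 to 205.1. Cd79b, the tested gene of the list with the highest mean, was at 13274 in that library and at 258.7, 216.2 and 641.8 in 11B3-deleted replicates 1, 2 and 4. In p53-loss-only replicates 1 to 4 it was at 236.0, 1531.3, 94.2 and 1045.7, higher in replicates 2 and 4, as Tnfrsf13c was. Rag2 and Vpreb2 each had no read in 5 libraries, Rag1 in 2 and Dntt in 1. That library was 1 of the 2 left out in the r of 0.914 above. By mean 19 of 20 tested B-lineage genes were higher with the deletion (median log2 difference 1.48), and 0 passed with limma or DESeq2. The part of B-lineage cells in the Tnfrsf13c values was not tested. Plasma cell genes (9 rows) summed to 5889 in the same library and to between 2510 and 3091 in the others. Of that sum, 2666 was 1 gene, 2010001M09Rik (now Mzb1), which was at 7.58 to 45.7 elsewhere. Edem2 and Igj, the others of highest mean, lay there within the range of the other libraries, and BCMA, also in the list, had 1 read there.

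The libraries held the myeloid genes of their label. Granulocyte genes summed to deposited values between 186683 and 756756, led by myeloperoxidase (Mpo), and the 14 genes of the list had no call with limma or DESeq2. No gene was called with limma in any of the 14 lists of pathway and cell type genes described here. Of the other cell type lists, all 13 erythroid genes had the higher mean in the deleted group (median log2 difference 1.79), with sums between 9419 and 202265 against 1063 and 45492. Dendritic genes had 10 of 13 higher (median 0.74), marrow stroma and endothelium 10 of 12 (median 0.38), and T and NK cell genes 4 of 12 (median -0.25). The median over all tested genes was 0.01.

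For each tested member, the 3 genes with the most similar log2 pattern over the 8 libraries are given as a description. Those of Tnfsf13 were H6pd, an enzyme of the endoplasmic reticulum (Pearson r = 0.981), Bcl10, an adaptor of NF-kB signalling (0.977), and the collagen lysyl hydroxylase Plod1 (0.976). Those of BAFF were Fgd3 (0.979), Ralgapa1 (0.971) and Trim43c (0.969), and those of Fn14 were the tetraspanin Cd82 (0.935), Mast1 (0.934) and the metalloproteinase Mmp27 (0.933). TACI was most like Rnf24 (0.950), Tes (0.950) and the calpain Capn3 (0.939). The BAFF receptor was most like the laminin chain Lamb2 (0.977), 5730494N06Rik (now Tmem230, 0.968) and Rltpr (now Carmil2, 0.941). All are over 8 libraries and among the genes tested.

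The summed value of the other ligands of the family was lower in the deleted leukaemias, without a call with limma. Tnf and Tnfsf8 were a large part of these sums, which therefore do not stand for the family as a whole. Of 15 listed ligands 13 had a row and 10 were tested; 7 had a lower and 3 a higher mean, and 2 had an unadjusted limma p under 0.05, both lower, against 2.38% of all genes. Their summed values were between 1279 and 1610 in the deleted libraries and between 2502 and 3648 in the others. Tnf, the founding member of the family, was at 304.6, 267.9, 381.9 and 206.0 against 2265.4, 1082.6, 404.5 and 773.1. The groups did not overlap, as in no other of the 10 tested ligands, against 2.15% of all genes. Nearest to the deleted libraries was p53-loss-only replicate 3. The log2 difference of Tnf was -1.73 (SE 0.48, limma adjusted p = 0.996, DESeq2 adjusted p = 0.0223). DESeq2 called 1 of the 10 tested ligands, against 0.395% of all genes. Tnfsf8, the CD30 ligand, was at 305.6 ± 191.5 against 821 ± 465.7, and Tnfsf11, the RANK ligand, at 29.7 ± 15.2 against 12.3 ± 4.74 (SD, n = 4 each).

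Of the other receptors of the family, 18 of 23 were tested, with 12 lower and 6 higher means, a median log2 difference of -0.22 and 1 of 18 with an unadjusted limma p under 0.05, lower, against 2.38% of all genes, so that a single call is close to the background. Tnfrsf11a, the receptor of Tnfsf11, was at 98.2 ± 51.1 against 328 ± 255.4 (SD, n = 4 each; log2 difference -1.60, SE 0.55, limma adjusted p = 0.996). Relt was at 1805 ± 435.8 against 1377 ± 220.9 and Tnfrsf14, the herpesvirus entry mediator, at 864.2 ± 350.4 against 1658 ± 958.6 (SD, n = 4 each).

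**Figure D5:**
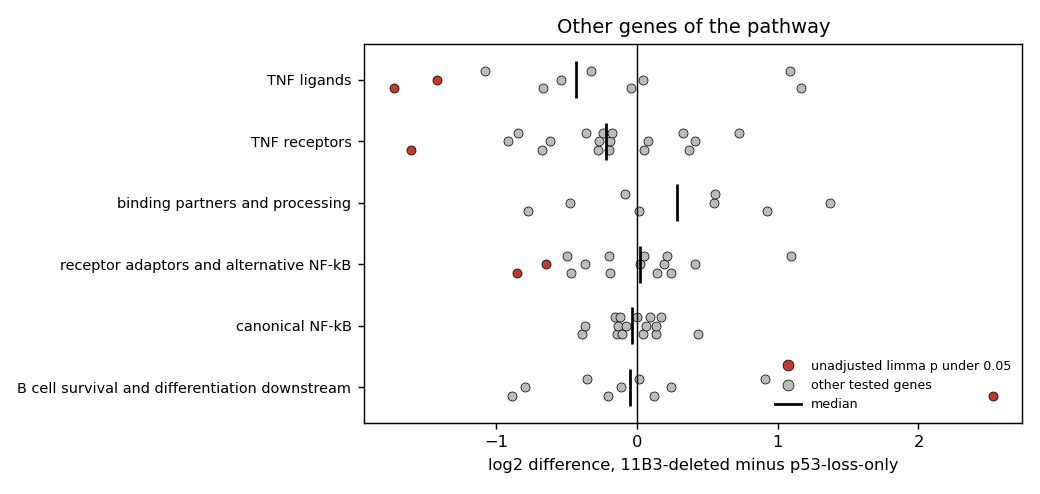
Log2 difference (x axis, 11B3-deleted minus p53-loss-only) of each tested gene of 6 pathway lists; red points have an unadjusted limma p under 0.05, grey points do not, and black lines are list medians. The TNF ligands have the lowest median, -0.43, and the binding partners the highest, 0.28.

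Proteoglycans that bind APRIL, the proteases that cut the ligands, and the TWEAK scavenger Cd163 had 3 lower and 5 higher means among 8 tested genes, and 0 unadjusted limma p under 0.05. Syndecan 1 (Sdc1) was at 195.1 ± 152.4 against 66.5 ± 35.1, syndecan 2 (Sdc2) at 60.5 ± 70.4 against 22.9 ± 13.3, and Furin, which cuts APRIL and BAFF from their precursors, at 4294 ± 2441 against 5416 ± 1107 (SD, n = 4 each).

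The adaptors and the alternative NF-kB pathway were split, with 7 lower and 8 higher means among 15 tested genes and a median log2 difference of 0.02. In this list 2 of 15 genes had an unadjusted limma p under 0.05, both lower, against 2.38% of all genes. Relb, the NF-kB subunit of the alternative pathway, was at 203.3 ± 34.9 against 319 ± 61.3 (SD, n = 4 each; log2 difference -0.64, SE 0.26, limma adjusted p = 0.996). Traf1 was at 43.0, 55.9, 31.0 and 60.5 against 66.1, 120.3, 63.5 and 94.7, with no overlap between the groups (log2 difference -0.85, SE 0.37, limma adjusted p = 0.996, DESeq2 adjusted p = 0.683). In this list 2 of 15 genes had no overlap, against 2.15% of all genes. The other was Traf3, which was higher with the deletion, at a log2 difference of 0.19. The kinase Map3k14 was at 733.6 ± 172.5 against 1035 ± 237.7 (SD, n = 4 each).

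The canonical NF-kB genes had 8 lower and 8 higher means among 16 tested, a median log2 difference of -0.04, and 0 unadjusted limma p under 0.05. Tab3 had a log2 difference of 0.44 (SE 0.32), the kinase Map3k7 of 0.17 (SE 0.16) and the inhibitor Nfkbie of -0.37 (SE 0.37). Genes that act in B-cell survival and differentiation downstream had 5 lower and 5 higher means among 10. Irf4, a transcription factor of lymphoid and dendritic cells, was at 159.2, 4612.2, 1072.1 and 157.2 against 82.6, 134.0, 108.5 and 93.6, without overlap (log2 difference 2.53, SE 0.99, limma adjusted p = 0.996, DESeq2 adjusted p = 0.0065). Its deleted libraries ranged from values just above the others to the highest, replicate 2. Irf4 was the 1 gene of these 10 without overlap and the 1 called with DESeq2, against 2.15% and 0.395% of all genes. The kinase Pim1 was at 3901 ± 2447 against 2020 ± 973 and Bcl2, which blocks apoptosis, at 1716 ± 882.9 against 2992 ± 1694 (SD, n = 4 each).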

How the data were processed

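Total RNA of 8 libraries, 4 per genotype by sample title, was sequenced by the authors. Per the submitters' processing notes, STAR, HTSeq, DESeq and the mm9 build were used; the notes as read here give no roles. The deposited signal values are, as the values themselves show, reads divided by a size factor plus 1. Less 1 and divided by the library's step, 100% were whole within 0.02, giving 30502718 to 35719495 reads per library. On these reads edgeR called 1 gene and DESeq2 58.

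Log2 of the deposited value was tested with limma (mean-variance trend, group as the only term, two-sided, Benjamini-Hochberg over the 14679 genes that reached 10 in 4 or more libraries, threshold 0.05). The deposited 1 is the pseudocount, which understates folds of low genes. Genes counted as lower or higher by mean were counted by their mean log2 value. The mean of the deposited values can go the other way, as for Ccr2 and Cd74. Single values had exact permutation tests. Exon lengths, gene order and current symbols came from GENCODE M21 (GRCm38), matched by identifier for 17888 of 18860 rows. Coordinates are of that build and not of the files'. The tools were limma 3.58.1, DESeq2 1.42.0 and edgeR 4.0.16, run in R 4.3.3. The fit was tested on simulated data.

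The members and lists were chosen with earlier results of these data known. Named genes are the members, 3 genes most like each, the nearest interval neighbours, up to 3 genes of smallest p per pathway list and, for cell types, genes from the 3 of highest mean. The markers Rag1, Rag2, Vpreb2 and Dntt, named for libraries without reads, the monocyte genes besides Ly6c2, Csf1r and Ccr2, and 2010012P19Rik were chosen after their values were seen, as were the ratio of Tnfsf13 to BC096441 the comparison with the interval median and the monocyte list without interval genes. The ratio planned against Tnfsf12 was not analysed here. Alternatives were another scaling, filters, an added constant, edgeR, DESeq2, each library left out and a replicate block. A result for 1 gene of the monocyte list is not reported here.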

Additional observations from a re-analysis of the deposited data

Results flagged for a closer look

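In groups of 4 libraries, 5 values stood apart from the rest of their group by Dixon's criterion at 95%, among 42 groups examined. Chance flags about 1 in 20 if the values are normally distributed and independent. The values and sums were taken without logs, and several flags are of the same library, so the count is no measure of an excess. Tnfrsf13c reached 315.0 in 11B3-deleted replicate 3, where the rest of its group had 37.1 to 54.8. The same library had a sum of 69219 for B-lineage genes (others 709 to 2578) and of 5889 for plasma cell genes (others 2593 to 3091). Of the plasma cell sum 2666 was 1 gene, 2010001M09Rik. In p53-loss-only replicate 3 the genes of binding partners and processing summed to 30891 (others 6570 to 9799). In 11B3-deleted replicate 2 the genes of B-cell survival and differentiation downstream summed to 38706 (others 15937 to 18530).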

How the results depend on the processing

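In each of the 15 alternatives 0 members passed, and the differences of Tnfsf13, Tnfrsf12a, Tnfrsf13c and BC096441 kept their sign. Leaving out each library in turn gave log2 differences from -1.54 to -1.003 for Tnfsf13 (unadjusted limma p 0.00709 to 0.0754), -0.57 to -0.13 for Tnfrsf12a and 0.17 to 1.43 for Tnfrsf13c. For Tnfsf13b they ran from -0.24 to 1.03, turning without 11B3-deleted replicate 4, and for Tnfrsf13b from -0.14 to 0.32, turning without 11B3-deleted replicate 3 and, at -0.03, without p53-loss-only replicate 1. The other scaling, the added constant, edgeR and DESeq2 gave -1.27 to -1.20 for Tnfsf13. The filters and the replicate block cannot change a difference of group means, so the kept differences there are no support. The count of all genes called was 2 in the test as reported. It was 1 with a value of at least 50 in 4 libraries, 1 with a constant of 5, 1 with edgeR, 58 with DESeq2 and 0 to 1 with a library left out; the cause was not tested. The log2 ratio of Tnfsf13 to BC096441 was 0.13 in the test as reported, and -0.13 to 0.56 with a library left out, turning without 11B3-deleted replicate 3 or p53-loss-only replicates 1 or 2.

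With the replicate number as a block the log2 difference of Tnfsf13 was by design still -1.22, at an unadjusted limma p of 0.0589, and 0 genes were called in all. Same-numbered libraries did not deviate together (correlations of deviations -0.03, -0.22, -0.41 and -0.24), and no library correlated best with its own number. With 4 libraries per group these correlations cannot show whether same-numbered libraries shared a batch. BCMA was limited by depth, with 9 and 23 reads per group.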
